A study of Mus musculus with 6 samples.

Results

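The Egr (early growth response) genes Egr1, Egr2, Egr3 and Egr4 were measured in cultured mouse cortical neurons after knockdown of the microRNA miR-27b. They encode transcription factors with zinc fingers of the C2H2 type that bind GC-rich sites in DNA. In neurons their transcription starts within minutes of synaptic activity or growth factor signalling, without new protein synthesis, which makes them immediate early genes. Calcium entry through NMDA receptors and voltage-gated channels, and the neurotrophin receptor TrkB, act on them through the ERK kinase cascade, serum response factor (SRF) with its ternary complex partners, and CREB. NAB proteins bind Egr1, Egr2 and Egr3 and act mostly as corepressors.

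All probes on the array annotated to 1 of these 4 genes were taken. There were 5 such probes among 45281, with 2 for Egr3 and 1 for each of the others. Of the 5 probes, 4 were detected well enough to be tested, among 18627 tested probes, and all 4 genes were thereby represented among 11280 tested genes.

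Knockdown cultures received lentivirus that lowers miR-27b and control cultures a control lentivirus, with 3 arrays in each group. All neurons came from C57BL/6J mice, were of genotype Dicerflox/flox in both groups, with no Cre named, and were grown for 14 days. Virus was added once the cells had attached, at a multiplicity of infection of 5, and total RNA was read on an Illumina bead array. The series describes 3 neuronal preparations, and the arrays with a shared replicate number were treated as 1 preparation's pair. Detected probes per array ran from 17498 to 19163 and mean intensity from 669 to 788. With so few arrays the precision of each value is limited.

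Lowered miR-27b is the difference between the groups, and no probe named for it was found, so the knockdown itself was not measured here. The mature microRNA and its close relative share a seed (bases 2 to 8, in capitals), shown as in RefSeq (GRCm38.p6) to identify what the virus was aimed at. The first lies at chr13:63300760-63300780 and the second at chr8:84208727-84208747, both on the plus strand.
mmu-miR-27b-3p: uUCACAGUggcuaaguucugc
mmu-miR-27a-3p: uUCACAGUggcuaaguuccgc

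RefSeq start-site windows (GRCm38.p6, 250 bases before to 50 after a gene's start) were held for Egr2 and Egr4 but not for Egr1 or Egr3. Those held are shown to look for sites of the factors named above. Capitals mark the motifs found on either strand. They were searched for the CArG box bound by SRF, the full CRE bound by CREB (TGACGTCA), the CRE core (TGACG, which also lies inside every full CRE), the EGR site (GCGNGGGCG) and a TATA box (TATANA). The Egr2 window is chr10:67537619-67537918 on the plus strand, and the Egr4 window chr6:85513540-85513839 on the minus strand.
Egr2: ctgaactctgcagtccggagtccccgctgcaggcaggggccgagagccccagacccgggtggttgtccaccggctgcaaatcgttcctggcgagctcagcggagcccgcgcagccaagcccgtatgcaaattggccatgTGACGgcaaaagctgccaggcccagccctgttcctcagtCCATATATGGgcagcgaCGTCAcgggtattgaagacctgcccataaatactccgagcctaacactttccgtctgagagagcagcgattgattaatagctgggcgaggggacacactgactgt
Egr4: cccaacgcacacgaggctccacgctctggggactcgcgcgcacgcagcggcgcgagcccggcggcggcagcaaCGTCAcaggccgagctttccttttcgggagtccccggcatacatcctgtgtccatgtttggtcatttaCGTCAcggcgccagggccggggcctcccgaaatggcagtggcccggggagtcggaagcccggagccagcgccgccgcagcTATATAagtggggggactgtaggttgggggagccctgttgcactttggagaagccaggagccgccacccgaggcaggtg

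The Egr2 window held a CArG box at positions -72 to -63 from the start site and CRE cores at -111 to -107 and -55 to -51. It was chosen, after the matches were seen, from 5 Egr2 windows as the first with the most kinds of motif. Of the other windows, 2 overlapped it and held the same letters, 1 held a different CArG box and 1 held none of the motifs. The Egr4 window held CRE cores at -177 to -173 and -109 to -105 and a TATA box at -29 to -24. No CArG box, full CRE or EGR site was found in it.

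Among 32841 windows of the same length, 1.63% held a CArG box, 1.79% a full CRE, 20.8% a CRE core, 5.55% the EGR site and 24.7% the TATA box. Few windows therefore held a CArG box, and many held a CRE core. These matches are letters in a window, and binding was not measured.

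Transcripts of all 4 Egr genes were lower after miR-27b knockdown, by 3.12-fold to 4.92-fold. Each of the 4 tested probes passed the threshold of an adjusted p under 0.05 in limma. Across the array 27.4% of tested probes passed in either direction, 13.6% being lower after knockdown and 13.9% higher. On each probe, every knockdown array lay below every control array, which was true of 22.6% of tested probes.

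Egr1, also known as Zif268, is the member most studied in synaptic plasticity and memory. Its probe (ILMN_2662926) read deposited intensities of 2617, 2513 and 2181 on the 3 knockdown arrays, and 11554, 12399 and 7701 on the 3 control arrays. After background correction and normalisation the log2 intensities were 11.29, 11.20 and 11.22 after knockdown, against 13.38, 13.50 and 12.96 in controls. The knockdown arrays lay within 0.091 of each other, the control arrays within 0.54, and the groups did not overlap.

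The group means of Egr1 were 11.24 ± 0.048 after knockdown and 13.28 ± 0.28 in controls (log2, SD, n = 3 each). The difference was -2.04 (SE 0.15, 95% interval -2.40 to -1.69, limma adjusted p = 0.000558), so that Egr1 was 4.12-fold lower. Pair by pair it was -2.09, -2.30 and -1.74.

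Egr2, also known as Krox20, drives myelination in Schwann cells and hindbrain patterning, and is induced by activity in neurons. Its probe (ILMN_2623983) was dimmer, with deposited intensities of 324, 343 and 376 after knockdown, against 1135, 1340.3 and 1020.3 in controls. The log2 intensities were 7.92, 7.99 and 8.30 after knockdown, against 9.998, 10.24 and 9.97 in controls. Here the spread was of like size in both groups, and the lowest control array stood 1.67 above the highest knockdown array.

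Egr2 averaged 8.07 ± 0.20 after knockdown and 10.07 ± 0.15 in controls (log2, SD, n = 3 each). It was 4.00-fold lower, a difference of -1.9997 (SE 0.13, 95% interval -2.32 to -1.68, limma adjusted p = 0.000461). The pairs differed by -2.08, -2.25 and -1.67.

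Egr3 acts downstream of activity and neurotrophin signalling and is needed for muscle spindle development. Its brighter probe (ILMN_1227494) read deposited intensities of 3186, 2906 and 2761 after knockdown, against 10044, 12089 and 7377 in controls. The log2 intensities were 11.58, 11.40 and 11.58 after knockdown, against 13.15, 13.46 and 12.89 in controls. Control replicate 2 was highest, and the closest arrays of the groups were 1.31 apart.

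Egr3 averaged 11.52 ± 0.11 after knockdown and 13.17 ± 0.28 in controls on this probe (log2, SD, n = 3 each). It had the smallest fall of the 4 genes, at -1.64 (SE 0.15, 95% interval -2.01 to -1.27, limma adjusted p = 0.00103), or 3.12-fold. The pairs differed by -1.57, -2.06 and -1.31.

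The second Egr3 probe (ILMN_2653543) did not show this difference. Its deposited intensities were 122, 112 and 139 after knockdown, against 123, 151 and 126 in controls, and the groups overlapped. It was detected on 0 of 3 knockdown arrays and 2 of 3 control arrays, did not reach the 3 arrays required, and so was not tested. Where on the transcript each probe lies was not used.

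Egr4, a member with a largely neuronal pattern of expression, had the largest fall of the 4. Its probe (ILMN_1215713) read deposited intensities of 591, 746 and 515 after knockdown, against 3057, 3740.3 and 1813.5 in controls. The log2 intensities were 8.98, 9.31 and 8.88 after knockdown, against 11.45, 11.76 and 10.86 in controls. The control arrays spread over 0.91, the widest range among the tested Egr probes, and still lay at least 1.55 above the knockdown arrays.

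Egr4 averaged 9.06 ± 0.23 after knockdown and 11.36 ± 0.46 in controls (log2, SD, n = 3 each). The difference was -2.30 (SE 0.24, 95% interval -2.87 to -1.73, limma adjusted p = 0.00142), a 4.92-fold fall. The pairs differed by -2.47, -2.45 and -1.98.

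An exact two-sided permutation test of 3 against 3 arrays gave p = 0.1 for each of the 4 probes, which is the smallest p this design can give. In bulk RNA, fewer cells that express a gene and less of its RNA per cell cannot be told apart.

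**Figure D1:**
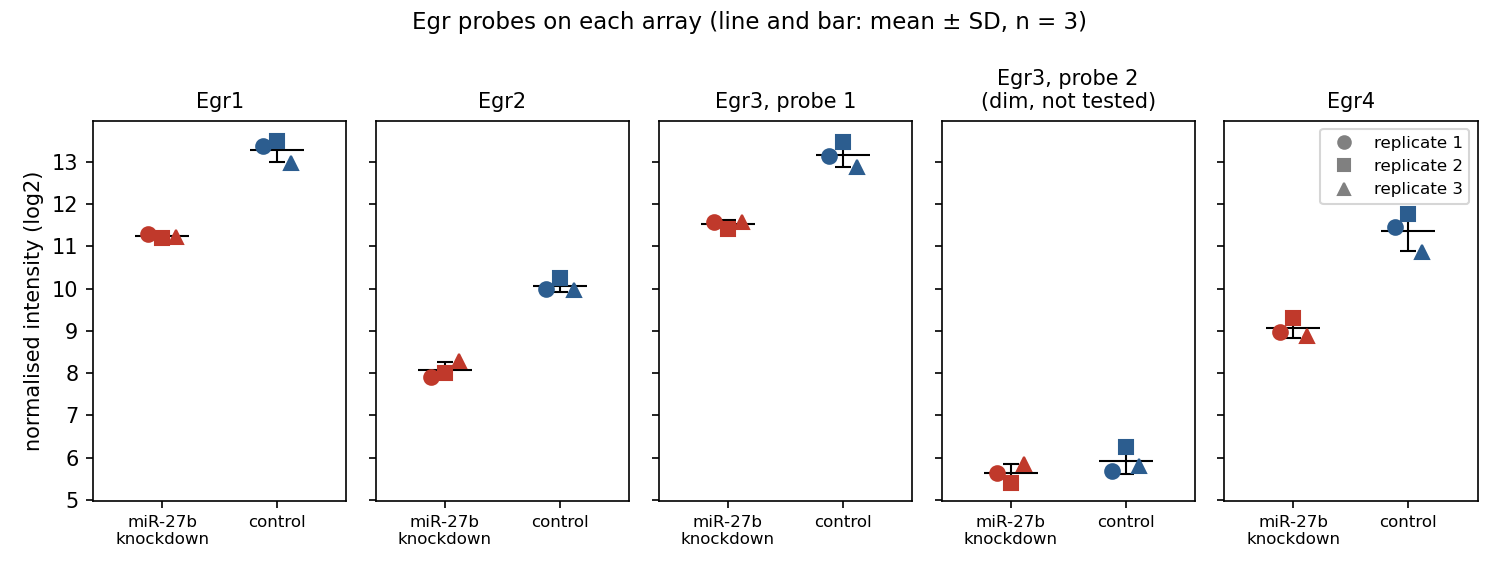
Normalised log2 intensity (y axis) of the 5 Egr probes on each array, with the 3 miR-27b knockdown arrays left of the 3 control arrays in each panel, marker shape giving the replicate number, and the line and bar the mean ± SD. The groups are apart on the 4 tested probes and overlap on the second, dim Egr3 probe.

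The size of these falls was uncommon on the array. Among 11280 genes, each read from its brightest detected probe, 63 (0.559%) were lower by at least as much as Egr3. Egr4 was the 6th lowest gene, Egr1 the 22nd and Egr2 the 24th, with Egr3 at the 63rd place. The number of genes that passed was large in both directions, at 1734 higher (15.4%) and 1578 lower (14%), together 29.4%. All knockdown arrays lay below all control arrays for 23.5% of genes. Scaling arrays by their medians gave 836 higher and 1253 lower, and leaving out control replicate 1 gave 1081 and 873.

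**Figure D2:**
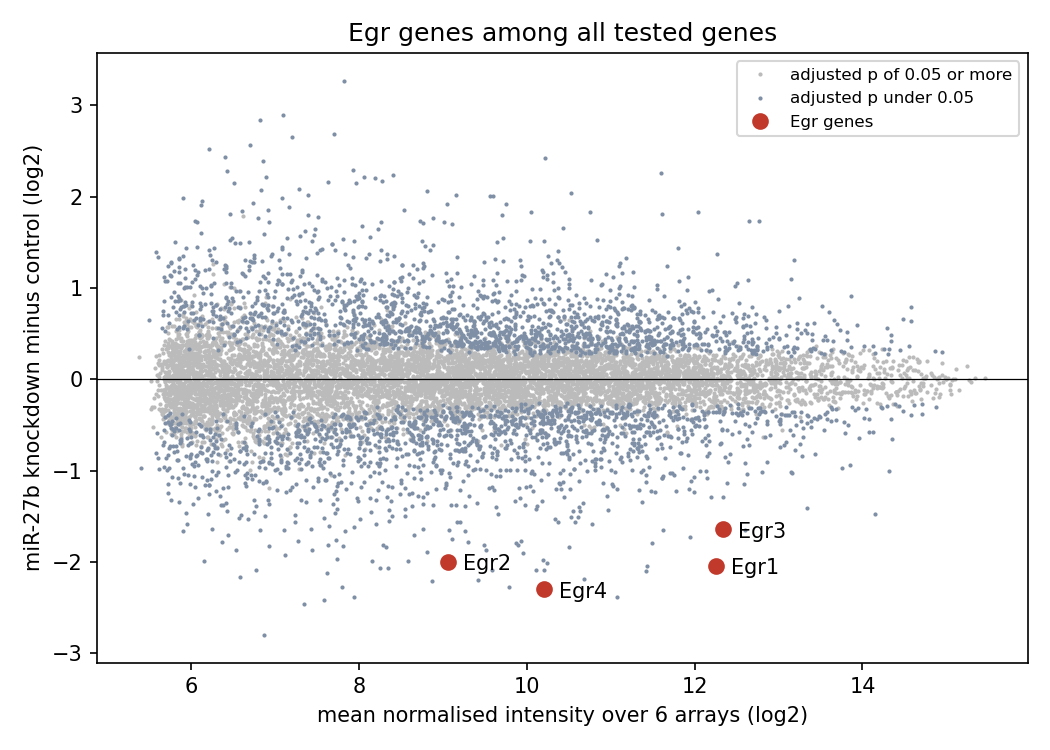
Difference between miR-27b knockdown and control (log2, y axis) against mean normalised intensity over the 6 arrays (log2, x axis) for each of 11280 genes, coloured by whether the limma adjusted p was under 0.05. The 4 Egr genes lie between -2.30 and -1.64, near the lower edge of the cloud.

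The control arrays shared an order across the family. Control replicate 2 was the highest control array and control replicate 3 the lowest for each of the 4 genes. This order was not particular to the family. Among genes described below, Fos, Junb, Npas4 and Arc had it too, while Bdnf, Vgf and Jun did not. The knockdown arrays did not share an order, since Egr1 was highest in replicate 1, Egr2 and Egr3 in replicate 3 and Egr4 in replicate 2. The fall was smallest in pair 3 for every member.

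Whether the members fell by unequal amounts was compared within arrays, over 6 pairs of genes. Egr3 fell less than Egr4 by 0.66 (0.90, 0.39 and 0.67 in the 3 preparations). It also fell less than Egr1 by 0.40, where Egr1 minus Egr3 was -0.52, -0.24 and -0.43. Egr2 minus Egr3 was -0.36 (-0.52, -0.19 and -0.37), or -0.12 without background correction. These 3 contrasts each gave an exact permutation p of 0.1, the smallest possible, and 0.2 after adjustment over the 6 pairs, so none could pass.

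Egr1 and Egr2 differed in their change by -0.04 (exact permutation p = 0.7, adjusted 0.7). Egr4 fell further than Egr1 by 0.26 (exact permutation p = 0.3, adjusted 0.45) and further than Egr2 by 0.30 (exact permutation p = 0.4, adjusted 0.48). By preparation, Egr1 minus Egr4 was 0.38, 0.15 and 0.24, and Egr2 minus Egr4 was 0.38, 0.21 and 0.31. The sign was the same in the 3 preparations for each of these contrasts, but none passed the unpaired test.

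The genes whose pattern was most like each member's were found by the root mean square distance between log2 values centred over the 6 arrays. Only genes with a RefSeq symbol that is not a clone identifier could be named, so an unnamed gene may lie nearer. Such likeness follows largely from a fall of the same size, so it is a description of these arrays. Egr1 lay nearest to Lamp5 (distance 0.124, r = 0.993 over 6 arrays), which encodes a lysosome-associated membrane protein found in neurons. Next came Cnnm1 (0.143) and Crhbp (0.156), the gene of the corticotropin-releasing hormone binding protein.

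Egr3 lay nearest to the histone gene H4c6 (0.113), then to Junb (0.115, r = 0.996 over 6 arrays), another immediate early transcription factor gene, and Inka2 (0.129). Egr2 lay nearest to Spcs3 (0.150), a signal peptidase subunit gene, Dpm1 (0.158), a mannosyl transferase subunit gene, and the potassium channel gene Kcnv1 (0.162). Egr4 was closest to Rasgrp1 (0.158), which encodes an activator of Ras, and to Map2k1 (0.189) and Lamp5 (0.199).

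The members were not each other's nearest neighbours. Ranked among all tested genes, including those that could not be named, Egr2 was the 7th nearest gene to Egr1 (distance 0.175) and Egr3 the 15th (0.213). Egr3 and Egr4 were furthest apart (0.395), with Egr4 273rd nearest to Egr3.

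The components around the Egr genes were described from lists written from general knowledge. Their counts are read against the 14% of all genes that were lower and the 15.4% that were higher, and list medians against the median of all genes of 0.0058.

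Upstream, genes of neurotrophin and calcium signalling were tested for 7 of 10 listed members. Of these 1 fell, 0 rose and 6 did not pass, with a median of -0.20. The share that fell was near the 14% of all genes. The gene that fell was Bdnf, the TrkB ligand and itself an activity-induced gene, with log2 intensities of 9.09, 9.58 and 9.54 after knockdown and 10.34, 10.93 and 10.48 in controls. The groups did not overlap, and the difference was -1.18 (SE 0.20, limma adjusted p = 0.00679). Of its other detected probes 1 passed, at -1.26 (limma adjusted p = 0.0178), and those at -1.13, -0.60 and -0.18 did not (adjusted p = 0.0718, 0.139 and 0.773). Ntrk2, the TrkB gene, differed by -0.54 and did not pass (limma adjusted p = 0.0897), but did with preparation as a replicate block (adjusted p = 0.0157), without background correction (adjusted p = 0.0428) and with median scaling. Of its other detected probes, 1 passed at -0.39 (limma adjusted p = 0.0391) and the other, at -0.78, did not (adjusted p = 0.0679).

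In the ERK, SRF and CREB list 10 of 18 genes were tested, with 2 lower, 1 higher, 7 short of the threshold and a median of 0.021. With the replicate block Rps6ka3, the gene of the ERK-activated kinase RSK2, also fell (-0.57, limma adjusted p = 0.0458, against 0.0849 without it). Map2k1, which encodes the ERK kinase MEK1, had the largest fall of the list. Its log2 intensities were 7.22, 7.57 and 6.87 after knockdown, against 9.54, 9.45 and 8.88 in controls, with no overlap. The difference of -2.07 (SE 0.24, limma adjusted p = 0.00189) was of the size seen for Egr1 and Egr2, and rests on 1 detected probe. Srf itself fell by 0.45 (SE 0.082, limma adjusted p = 0.0094), a call lost without pair 1 or pair 2 (differences of -0.44, adjusted p up to 0.097).

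Creb1 rose by 0.51 (SE 0.14, limma adjusted p = 0.0383), with log2 intensities of 7.47, 7.33 and 7.04 after knockdown, against 6.75, 6.93 and 6.61 in controls. Its call was lost in 7 of the 9 fits that left out an array or a pair, keeping it only without knockdown replicate 3 or pair 3. In the others the difference was 0.41 to 0.59 and the adjusted p up to 0.203. It was also lost with median scaling (adjusted p = 0.113), with no filter on dim probes and with an intensity trend in the variance.

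Cofactors and regulators of EGR proteins mostly did not pass, as was true of all genes, of which 29.4% passed and 14% were lower. Of 9 listed, 8 were tested, 1 fell, 0 rose and 7 did not pass, with a median of -0.0043. The corepressor genes Nab1 and Nab2 differed by 0.25 (limma adjusted p = 0.263) and -0.14 (adjusted p = 0.630). Ddx20, whose product binds Egr2, differed by 0.05, the ubiquitin ligase gene Wwp2 by -0.12, Hcfc1 by 0.24, and the acetyltransferase genes Crebbp and Ep300 by 0.08 and -0.06. None of these passed.

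Itch, which encodes a ubiquitin ligase of the same family as Wwp2, fell by 0.47 (SE 0.10, limma adjusted p = 0.0172). The call was lost without knockdown replicate 2, without control replicate 1 or 2, and without pair 1 or 2, where the difference was -0.48 to -0.40 and the adjusted p up to 0.137. It was also lost with median scaling (adjusted p = 0.0583). The other detected probes of Itch differed by -0.42 and -0.34 and did not pass (limma adjusted p = 0.156 and 0.0836).

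Downstream, 13 of 17 genes reported as EGR targets in any species were tested. Of these 2 fell, 0 rose and 11 did not pass, with a median of -0.14. Here too the share that fell was near the 14% of all genes. Arc, which regulates AMPA receptor traffic and is also an immediate early gene, had log2 intensities of 6.66, 7.02 and 6.57 after knockdown, against 9.06, 9.33 and 9.03 in controls. The difference was -2.39 (SE 0.15, limma adjusted p = 0.000407), or -1.80 without background correction.

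Syn2, a gene of the synapsins on synaptic vesicles, fell by 0.56 (SE 0.13, limma adjusted p = 0.0248). That call was lost without knockdown replicate 2 or 3, control replicate 1 or 2, or pair 1 or 2, where the difference was -0.60 to -0.46 and the adjusted p up to 0.144. Fitting all probes, dim ones included, also lost it. The other detected probe of Syn2, at -0.40, did not pass (adjusted p = 0.0702). The peripheral myelin gene Pmp22 and the myelin gene Mbp, tested as the 2 detected genes of 5 listed targets of Egr2 in myelinating glia, differed by -0.10 and -0.11 (limma adjusted p = 0.582 and 0.561).

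Other immediate early transcription factor genes moved in both directions. Of 22 listed, 13 were tested, and 5 fell, 5 rose and 3 did not pass. Their median was -0.06, or -0.16 with median scaling and 0.089 when detection at p under 0.01 on all 6 arrays was required. Of all genes 14% were lower and 15.4% higher. The counts include Fosb among those that fell and Atf3 among those that rose. Each of these met the detection filter only through the group where it was high, so its call adds no support.

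Fos, a partner of Jun proteins in AP-1, had log2 intensities of 7.22, 7.83 and 6.92 after knockdown, against 9.30, 9.74 and 9.11 in controls. The difference was -2.06 (SE 0.26, limma adjusted p = 0.00266). Npas4, an activity-specific factor that organises inhibitory synapses, differed by -2.09 (limma adjusted p = 0.00237), or -1.26 without background correction. On 1 of the 3 knockdown arrays it was not detected. Both groups were apart for each of these genes, as for the Egr genes.

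Junb differed by -1.49 (SE 0.11, limma adjusted p = 0.00058). Fosb was detected on 0 of 3 knockdown arrays and was at least 1.86-fold lower, a bound set by the dimmest detected probe of each array. Its limma adjusted p of 0.0112 belongs to the fitted difference, which includes undetected values, and not to this bound. Per1, a circadian gene also induced by activity, was the other of the 5 that fell, at -0.67 (limma adjusted p = 0.00341), a call lost without pair 2 (difference -0.63, adjusted p = 0.0523).

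Jun had the opposite direction, with log2 intensities of 10.90, 11.12 and 11.21 after knockdown, against 9.52, 9.57 and 9.94 in controls. It rose by 1.40 (SE 0.15, limma adjusted p = 0.00141), and the groups did not overlap. Atf3, a stress-induced factor of the ATF family, was detected on 0 of 3 control arrays and was at least 1.47-fold higher. Here too the limma adjusted p of 0.000849 belongs to the fitted difference and not to the bound. Crem, which encodes activators and repressors at CRE sites, rose by 0.95 (limma adjusted p = 0.00344). Of its other detected probes, 1 passed at 0.71 (limma adjusted p = 0.00223) and the other, at 0.34, did not (adjusted p = 0.261).

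Fosl2 rose by 0.64 (limma adjusted p = 0.0137), a call lost without pair 1 or 2 (differences of 0.58 to 0.64, adjusted p up to 0.0832) and with median scaling. Klf6 rose by 0.51 (limma adjusted p = 0.0422), which was lost in 7 of 9 fits that left out an array or a pair, that is in all but those without knockdown replicate 3 or control replicate 2. In those 7 the difference was 0.39 to 0.55 and the adjusted p up to 0.196. The call was also lost with median scaling (0.36, adjusted p = 0.272) and when dim probes were kept. The other detected probe of Klf6, at 0.55, did not pass (adjusted p = 0.147).

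Activity-induced effector genes fell more often than they rose. Of 23 listed, 18 were tested, with a median of -0.37 (-0.51 with median scaling). Where 14% of all genes were lower and 15.4% higher, 9 of these 18 fell, 0 rose and 9 did not pass. Besides Arc and Bdnf, which are in other lists too, the largest falls were those of Nptx2, Rgs2 and Vgf. Nptx2, which encodes a pentraxin that clusters AMPA receptors, read 8.17, 8.17 and 8.40 after knockdown, against 9.62, 10.10 and 9.98 in controls (log2). The difference was -1.66 (SE 0.15, limma adjusted p = 0.000914), with no overlap.

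Rgs2, a regulator of G protein signalling, differed by -1.52 (limma adjusted p = 0.00581), a call lost without pair 1 (difference -1.41, adjusted p = 0.0686). The neuropeptide precursor gene Vgf differed by -1.44 (limma adjusted p = 0.0046). The other genes that fell were Inhba, Dusp6, Nrn1 and Plk2, at -1.19 to -0.51. Inhba did not pass when dim probes were kept. The 4 calls, in that order, were lost in 6, 4, 6 and 2 of the 9 fits that left out an array or a pair, with adjusted p up to 0.153, in each case without pair 1 and without pair 2. The phosphatase gene Dusp1 differed by 0.37 and did not pass (limma adjusted p = 0.0542), but did with the replicate block (adjusted p = 0.0431) and without background correction (adjusted p = 0.0285).

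**Figure D3:**
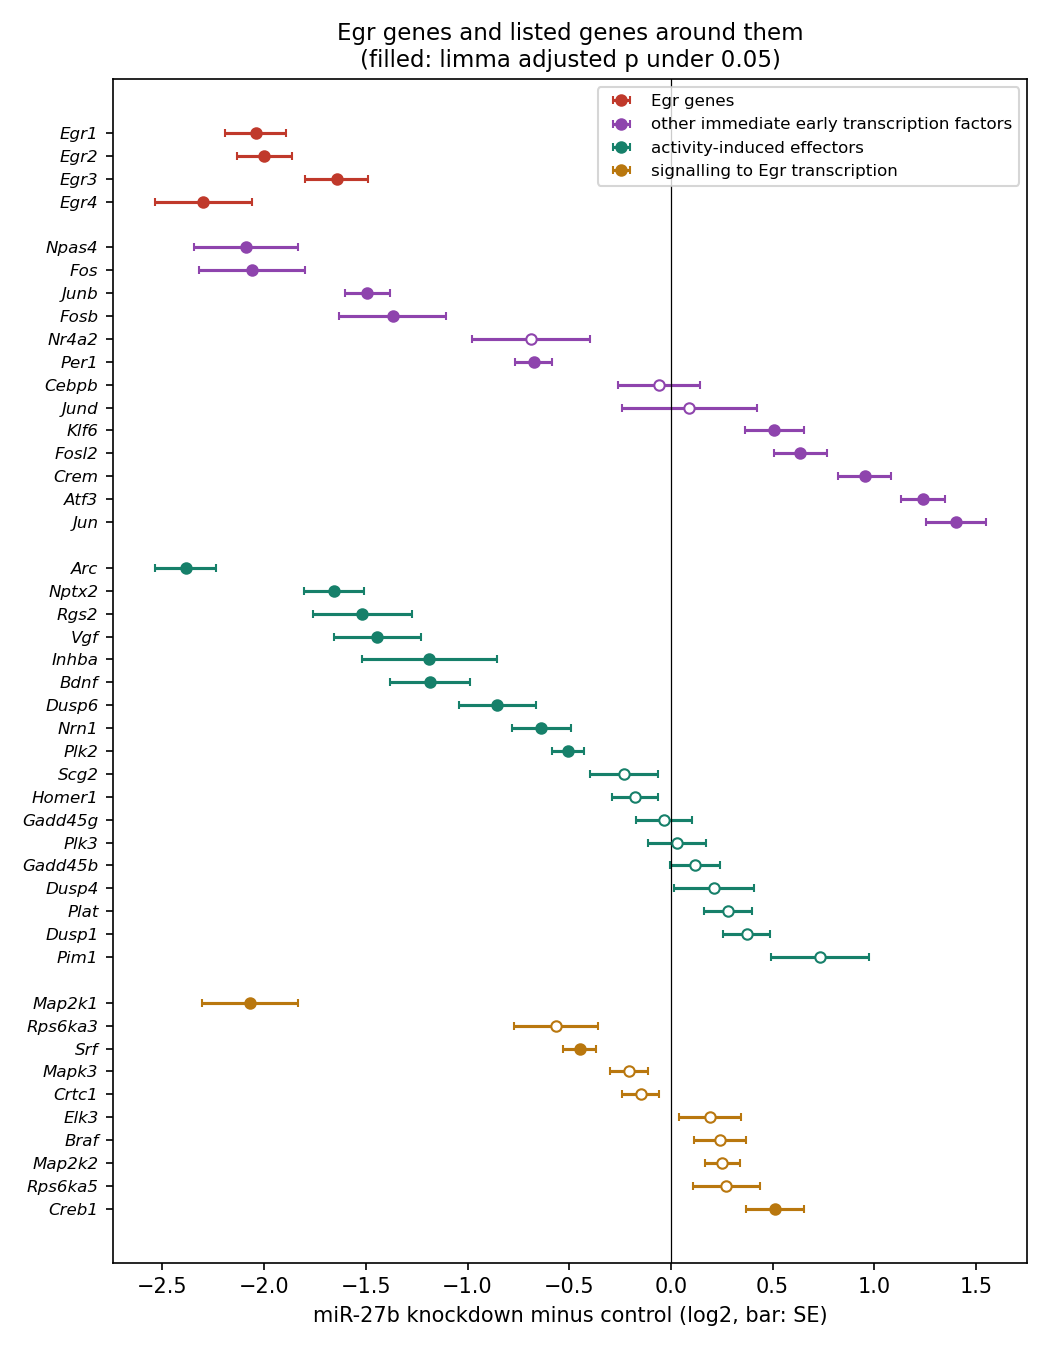
Difference between miR-27b knockdown and control (log2, x axis, bars SE) for the 4 Egr genes, 13 other immediate early transcription factor genes, 18 effector genes and 10 signalling genes, filled where the limma adjusted p was under 0.05. The 4 Egr genes sit at -1.64 or below, while the other transcription factor genes run from Npas4 at -2.09 to Jun at 1.40, with Fosb and Atf3 drawn at their fitted values although each was undetected in 1 group.

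Markers of the cells in the cultures moved in the same arrays. Their counts are also read against the 14% of all genes that were lower and the 15.4% that were higher. Of 6 pan-neuronal markers, 4 were detected. Syt1 and Rbfox3 fell, at -1.003 and -0.42 (limma adjusted p = 0.000634 and 0.0162), while Map2 and Tubb3 differed by 0.11 and 0.17 and did not pass. Their summed normalised intensity ran from 43137 to 45461 after knockdown and from 61176 to 63371 in controls. Such a sum follows its brightest probes, here those of Syt1, Rbfox3 and Map2. Their mean log2 values were 13.82, 13.81 and 13.87 after knockdown, and 14.82, 14.23 and 13.76 in controls. Of 7 excitatory neuron markers, 5 were tested, with Camk2a and Slc17a7 lower and Slc17a6 higher (0.79, limma adjusted p = 0.00162), and the sums were 15126 to 17051 after knockdown and 17070 to 17632 in controls.

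All 6 tested inhibitory neuron markers of 8 fell, against 14% of all genes. Their sums were 24836 to 30831 after knockdown and 48099 to 53506 in controls. Slc32a1 passed only narrowly (-0.50, limma adjusted p = 0.0497). Fits that left out arrays are not reported for the markers. Of 8 astrocyte markers 7 were tested and 4 fell, the largest falls being Gfap at -1.83 and Aqp4 at -1.29 (limma adjusted p = 0.00644 and 0.00288). The other detected probe of Gfap, at -1.08, did not pass (limma adjusted p = 0.0944). Slc1a3, Aldh1l1 and Gja1 did not pass, at -0.13, -0.09 and -0.44 (limma adjusted p = 0.557, 0.742 and 0.0995). The astrocyte sums were 17151 to 21455 after knockdown and 23368 to 31792 in controls. The inhibitory neuron and astrocyte markers that passed were thus lower, as the Egr genes were. Of the pan-neuronal list 2 of 4 did not pass and had differences above 0, and the excitatory markers that passed went both ways. The part of these cell types in the Egr result was not tested.

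Of 8 oligodendrocyte lineage markers 3 were tested and 0 passed, with sums of 4703 to 7548 after knockdown and 8145 to 10854 in controls. Olig1 was by far the brightest of the 3 and set most of these sums. Of the microglia markers only Aif1 was detected out of 7, and Cx3cr1, P2ry12, Csf1r, Itgam, Tmem119 and C1qa were not. Its level was 72.8 to 80.9 after knockdown and 45.4 to 68.8 in controls. Endothelial markers were tested for 2 of 5 and fibroblast and mural markers for 2 of 6, and 0 of these passed. The endothelial sums were 72.4 to 123 after knockdown and 115 to 144 in controls, and the fibroblast and mural sums 756 to 1474 after knockdown and 692 to 1844 in controls.

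With the replicate block 1 more marker was lower in each of 4 lists. These were Nrgn among the excitatory neuron markers (-0.52, limma adjusted p = 0.0164), Gja1 among those of astrocytes (-0.44, adjusted p = 0.0275), Olig1 of the oligodendrocyte lineage (-0.63, adjusted p = 0.0172) and Pecam1 of endothelial cells (-0.38, adjusted p = 0.0343). Pecam1 was dim, detected on 1 of 3 knockdown and 2 of 3 control arrays. Without the block its limma adjusted p was 0.393.

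The Egr differences kept their direction and their side of the threshold under each of 20 alternative settings. These settings overlap and are not independent checks. The authors' normalised table and the fit without background correction were nearly the same, each with 1959 genes higher and 1805 lower. Some others changed only the filter or the variance model. Egr1 lay between -2.20 and -1.92, Egr2 between -2.18 and -1.74, Egr3 between -1.81 and -1.44 and Egr4 between -2.55 and -2.09. The highest limma adjusted p was 0.0255 for Egr1, 0.0250 for Egr2, 0.0299 for Egr3 and 0.0356 for Egr4, each in the fit without pair 1.

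**Figure D4:**
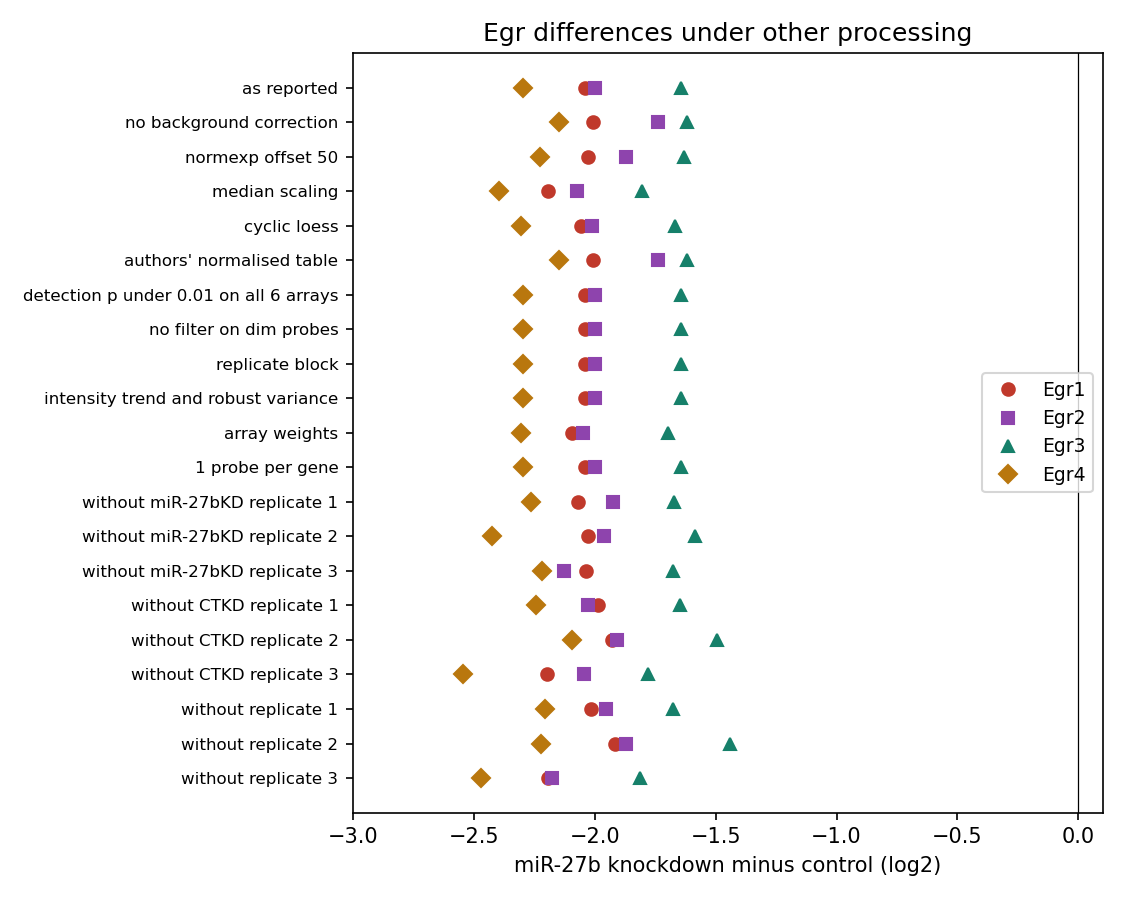
Difference between miR-27b knockdown and control (log2, x axis) of the 4 tested Egr probes as reported and under 20 other settings (rows), where "without replicate" followed by a number leaves out that pair of arrays. Every point lies below 0, from -2.55 to -1.44, and Egr4 is the lowest and Egr3 the least changed in each row.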

How the data were processed

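Per the file headers, the deposited table holds raw probe intensities that were not normalised across arrays, each accompanied by a detection p-value. The sources used here do not name the scanner software or say how it treated background. The authors' other deposited table was found to hold quantile-normalised intensity (largest log2 deviation from the same step run here, 0.00462). It was tried as another start, though it nearly repeats the setting without background correction.

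Groups and replicate numbers came from the labels. Background was corrected with the normexp model from the detection p-values (neqc, offset 16), followed by quantile normalisation and log2, in limma 3.58.1 and R 4.3.3. Probes had to reach a detection p under 0.05 on 3 or more arrays to be fitted (lmFit and eBayes), and the Benjamini-Hochberg adjustment ran over all of them. Differences are miR-27b knockdown minus control. A gene was read from its detected probe with the highest mean. Summed levels of lists add these probes' normalised intensities. Symbols were held for 35784 of 45281 probes, and 937 were updated through a RefSeq table (GRCm38.p6) by gene ID or accession.

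Members, lists, tests and alternatives were chosen with earlier results of these data known. The rule for named genes took all Egr probes, all detected cofactors and the 3 genes nearest to each member, clone identifiers left out. It also took up to 4 genes per list and direction with the largest difference among those past the threshold. Lists with no gene past it gave the 2 of smallest p. Ntrk2, Rps6ka3 and Dusp1 were named after their values were seen, because other settings change their call. So were the marker genes and the effector genes Inhba, Dusp6, Nrn1 and Plk2.

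The pairing of arrays rests on the replicate numbers, on the 3 preparations the series describes and on how same-numbered arrays departed together from their group means (correlations of 0.148, 0.253 and 0.250 across genes, which are not independent replicates). An alternative fit used preparation as a replicate block. Nothing further says how cultures within a preparation were kept apart. Other alternatives covered background, scaling, filters, variance model, array weights and leaving out each array or pair. The fit was tested on simulated data.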

Additional observations from a re-analysis of the deposited data

How the results depend on the processing

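Of 80 recomputed Egr differences, which come from overlapping settings, all 80 kept their direction and call. Of 66 recomputed contrasts between Egr genes 64 kept their direction. The contrast Egr1 minus Egr2 ran from -0.15 to 0.090 when an array or pair was left out, and turned positive without knockdown replicate 3 (0.090) and without control replicate 1 (0.04). Of 1301 recomputed values of listed genes, 1167 kept their call and direction. With median scaling 1295 probes and 836 genes were higher, against 2581 and 1734, so that 40.0% of called genes were higher, against 52.4%. With preparation as a replicate block 1700 genes were higher and 1615 lower, 2567 probes were higher and 2598 lower, and 7 listed genes were higher and 20 lower, against 6 and 18. The block changed no Egr call. Leaving out an array or pair gave 676 to 2140 probes higher, 737 to 2143 lower, 462 to 1464 genes higher, 479 to 1320 lower, 2 to 6 listed genes higher and 9 to 18 lower. These fits have fewer arrays. Gene counts moved by over 1.5 times without pair 1 (462 higher, 479 lower), pair 2 (536 and 521), control replicate 1 (1081 and 873), knockdown replicate 2 (1126 higher) and control replicate 2 (1037 lower). With no filter on dim probes, the second Egr3 probe (ILMN_2653543) differed by -0.29 (limma adjusted p = 0.470). Signal over background limits such dim probes, and without background correction the Egr2 difference was -1.74.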

Other observations

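The CRE core (TGACG, either strand) was also looked for in the start-site windows held for the other immediate early transcription factor genes and the effector genes, as a description with no test. Such a site was present in a window of 8 of 10 genes that fell, 1 of 4 that rose and 6 of 10 that did not pass. Genes without a window are left out of these counts, among them Arc, Nptx2, Nrn1 and Vgf, which fell, and Crem, which rose. A gene counted if any of its windows held the site, and Bdnf had 7 windows. The CRE core was also present for 8 of 9 genes that were not detected, and for 23.1% of all 27018 genes with a window. A CArG box was present for 0 of the 10 genes that fell, 0 of the 4 that rose and 0 of the 10 that did not pass. Of all genes with a window only 1.81% held one, so these counts cannot separate the listed genes from others. Bases more than 250 before a start site were not searched, so CArG boxes further upstream would be missed.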
